A study of Mus musculus with 60 samples.

Results

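Mitochondrial ribosomal proteins were followed at the transcript level in mouse hearts with and without a cardiomyocyte-specific block of O-GlcNAcase, the enzyme that removes O-GlcNAc from proteins. They were taken by name, as every gene row whose symbol starts with Mrpl or Mrps followed by a digit, without pseudogenes, and with at least 10 counts in 5 or more of the 60 libraries. This gave 77 of the 53700 gene rows, 48 Mrpl genes and 29 Mrps genes. Of 83 matching symbols 5 were pseudogenes, and Mrpl53 was left out because no library had a count on it (88.0% of its exon bases are shared with another gene on the same strand). None of the 77 was near the limit of detection, since each had at least 10 counts in all 60 libraries and the smallest count of any member in any library was 12. All 77 also passed the filter on low counts and were tested.

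The samples were biventricular tissue of male mice on the C57BL/6 background, 1 heart per library, with 5 hearts of each genotype at ZT0, ZT4, ZT8, ZT12, ZT16 and ZT20 (hours after lights on in a cycle of equal light and dark). CON mice carried αMHC-rtTA alone, which directs the doxycycline-controlled transactivator to cardiomyocytes. dnOGAh mice carried αMHC-rtTA and TRE-EGFP-dnOGA, a doxycycline-inducible transgene with a dominant-negative splice variant of rat OGA. Both genotypes received doxycycline from the age of 10 weeks, as an injection of 100 µg and a diet with 1 g per kg, for 2 weeks, so the drug and the transactivator are common to all groups. The transgene is driven only in cardiomyocytes, while the RNA came from whole ventricles with all of their cell types.

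The mitochondrial ribosome translates the small set of respiratory chain and ATP synthase subunits encoded by the mitochondrial genome. Its RNAs come from that genome, but all of its proteins are encoded in the nucleus, made on cytosolic ribosomes and imported. Heart muscle, with its dense mitochondria, depends on it, and inherited defects of several of these proteins in humans cause cardiomyopathy together with combined deficiency of the respiratory chain complexes.

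Promoter windows from RefSeq (build GRCm38.p6, 250 bases before to 50 after the start) were at hand for 68 of the 77 members. They are given here for 2 pairs of genes on which the results turn. Mrpl42 had the highest level in CPM and the second largest fall, and Mrpl35 was the only member that rose. Mrps18a and Mrps18b encode related proteins, and 1 of them fell while the other did not pass the test. Capitals mark the letters AAGATGGC (YY1 site), CCGGAAG (ETS site, bound by GABP) and GCATGCGC (core of the NRF1 site), searched on both strands. Letters that 2 motifs share counted for both, and a gene with several windows counted as holding a motif if any window did.
Mrpl42 (chr10:95501900-95502199, minus strand): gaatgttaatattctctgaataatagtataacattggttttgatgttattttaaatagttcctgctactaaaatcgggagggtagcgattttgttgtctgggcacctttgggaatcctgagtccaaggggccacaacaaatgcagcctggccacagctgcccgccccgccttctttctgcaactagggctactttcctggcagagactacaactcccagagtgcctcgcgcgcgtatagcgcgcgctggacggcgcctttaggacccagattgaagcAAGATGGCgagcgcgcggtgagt
Mrpl35 (chr6:71823735-71824034, minus strand): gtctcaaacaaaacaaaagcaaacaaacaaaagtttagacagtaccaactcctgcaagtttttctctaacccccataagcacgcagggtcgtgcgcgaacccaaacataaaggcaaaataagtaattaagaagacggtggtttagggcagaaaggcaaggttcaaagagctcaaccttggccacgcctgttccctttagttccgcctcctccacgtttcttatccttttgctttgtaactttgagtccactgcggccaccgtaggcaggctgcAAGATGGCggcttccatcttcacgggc
Mrps18a (chr17:46110754-46111053, plus strand): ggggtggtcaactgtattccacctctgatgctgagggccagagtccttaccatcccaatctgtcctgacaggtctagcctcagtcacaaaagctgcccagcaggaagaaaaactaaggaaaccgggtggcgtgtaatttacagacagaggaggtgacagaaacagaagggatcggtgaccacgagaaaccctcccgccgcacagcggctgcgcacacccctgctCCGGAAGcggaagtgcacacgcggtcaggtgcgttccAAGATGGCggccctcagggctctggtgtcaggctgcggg
Mrps18b (chr17:35916391-35916690, minus strand): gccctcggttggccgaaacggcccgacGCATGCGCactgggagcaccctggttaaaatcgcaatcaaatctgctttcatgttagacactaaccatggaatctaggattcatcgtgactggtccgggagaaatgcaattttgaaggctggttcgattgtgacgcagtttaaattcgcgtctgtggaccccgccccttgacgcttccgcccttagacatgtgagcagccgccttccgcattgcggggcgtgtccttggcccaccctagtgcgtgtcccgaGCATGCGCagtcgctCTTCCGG
Mrpl42, which fell, and Mrpl35, which rose, both held the YY1 letters on the coding strand just after the start. Over the 68 members with a window, the YY1 letters were found in 12 (17.6%, against 3.43% of the 20519 genes with a window), the ETS letters in 25 (36.8%, against 11.9%) and the NRF1 letters in 8 (11.8%, against 3.63%). At least 1 of these motifs was present in 37 members (54.4%, against 17.3% of all genes). The E-box CACGTG, bound by the clock activators, was in 5 members (7.35%, against 8.63%), and the D-box TTATGTAA, bound by clock output factors, was in 0 of 68 (against 1.07%). The GC box GGGCGG was in 34 members of 68 (against 45.2%). Among the 55 members with a window that fell, 16 held the ETS letters, 10 the YY1 letters and 5 the NRF1 letters. Among the 13 that did not fall, 9 held the ETS letters, 2 the YY1 letters and 3 the NRF1 letters. Mrps35, with the largest fall, is among the 9 members without a window. These are matches of letters and not shown binding, and no factor was measured at these sites.

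Between 9162859 and 82938039 counts fell on genes in the CON libraries, and between 14540266 and 54766622 in the dnOGAh libraries, and values below are CPM (the share of counts on a gene, times 1e+06, after TMM scaling of library sizes). Oga, the mouse gene of O-GlcNAcase, appears as Mgea5 in the name table and can also take up reads of the rat transgene. It had 59.3 ± 6.02 CPM (SD, n = 30) in CON hearts and 472 ± 192 CPM (SD, n = 30) in dnOGAh hearts, and 29 of 30 dnOGAh libraries were above every CON library. The exception, the library labelled dnOGAh ZT12 replicate 3, had 70.1 CPM of Oga, inside the CON range. Oga thus went against the label of this library. The reason, such as a wrong label, a transgene that was not induced or another fault of the library, was not tested. In that library 64 of the 77 members were at the highest level of any dnOGAh heart, and 28 were inside the CON range. It was not like a CON heart throughout. Its summed level of the members, 7996 CPM, was above the highest CON sum of 6694 CPM. Its summed cardiomyocyte markers, 80700 CPM, were above the highest CON sum of 60190 CPM. CON ZT4 replicate 4 and dnOGAh ZT4 replicate 4 also stood apart, with 77.6% and 66.0% of their counts on mitochondrial genome transcripts (medians 30.7% in CON and 17.2% in dnOGAh hearts). In CON ZT4 replicate 4, 70 members were at the lowest level of any CON heart. These 3 libraries set many of the lowest and highest values given below for single members, and the main counts and the ranges of sums are also given without them.

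The summed level of the 77 members was 3032, 5663 and 6694 CPM (lowest, median and highest of 30) in CON hearts and 3021, 3893 and 7996 CPM in dnOGAh hearts. The lowest CON value and the highest dnOGAh value were from the libraries that stood apart, and without those 3 libraries the sums ran from 5171 to 6694 CPM in CON and from 3214 to 5327 CPM in dnOGAh hearts. By time of day the mean ± SD (n = 5 in each group) was 5727 ± 550 CPM in CON and 3779 ± 353 in dnOGAh hearts at ZT0, and 5757 ± 321 and 3541 ± 332 at ZT8. At ZT12 the CON hearts had 6137 ± 592 CPM and the dnOGAh hearts 4606 ± 1918, with the library labelled dnOGAh ZT12 replicate 3 at 7996 and the other 4 dnOGAh hearts at 3758 ± 341 (SD, n = 4). With TMM scaling the summed level was lower in dnOGAh hearts at each of the 6 times. The order of the sums was not checked on total counts alone, where the members' median log2 fold change over the day was 0.02.

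**Figure D1:**
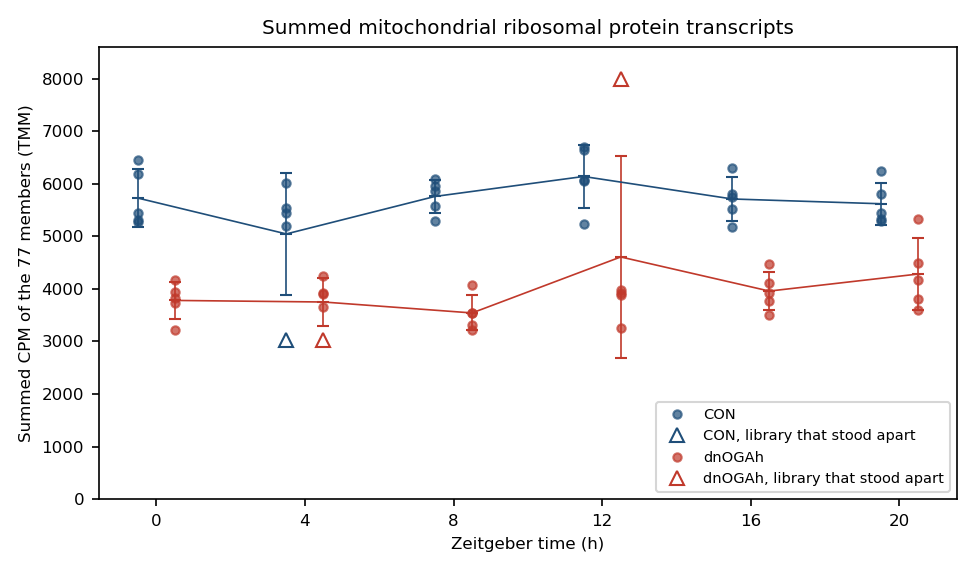
Summed CPM of the 77 members (vertical axis, TMM scaling) by zeitgeber time (horizontal axis, h), with 1 point per heart and the mean ± SD of 5 hearts joined by lines. Open triangles are the 3 libraries that stood apart. Apart from them, the CON hearts (median 5750 CPM) lie above the dnOGAh hearts (median 3892 CPM) at every time but ZT20. There 1 dnOGAh heart reaches the CON range. On total counts alone the members' median log2 fold change over the day is 0.02.

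Over the day, 63 of the 77 members fell in dnOGAh hearts, 1 rose and 13 did not pass the test (edgeR's quasi-likelihood test, Benjamini-Hochberg adjusted p under 0.05 over 18119 genes), while on total counts with no further scaling 16 fell and 20 rose. With TMM scaling 31.9% of all tested genes fell and 38.8% rose, and these shares on total counts are not given here. The median log2 fold change of the members was −0.45, a level of 73.5% of CON, against 0.06 over all tested genes. Total counts alone moved the median of all genes up by 0.48, to 0.54, and the members' median became 0.02. Relative to the median of all genes, the members' median was −0.51 with TMM, −0.51 with DESeq2 size factors and −0.53 on total counts. In the same way 72 of the 77 members lay below the median of all genes with TMM, and 73 did on total counts. Without the 3 libraries 66 members fell and 2 rose, against 34.1% of all tested genes that fell. In tissue RNA, fewer cardiomyocytes and less of these transcripts per cardiomyocyte cannot be told apart.

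By symbol, 39 of the 48 large subunit genes fell, 1 rose and 8 did not pass, with a median log2 fold change of −0.44. Of the 29 small subunit genes 24 fell, none rose and 5 did not pass, with a median of −0.46. The summed large subunit over the summed small subunit, a ratio within each library that library scaling does not touch, was 2.15, 2.27 and 2.36 (lowest, median and highest) in CON hearts and 2.20, 2.26 and 2.41 in dnOGAh hearts. The symbols are not exact on the subunit, since the products of Mrps18a and Mrps30 sit in the large subunit and the product of Mrps36 is now placed in the 2-oxoglutarate dehydrogenase complex.

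**Figure D2:**
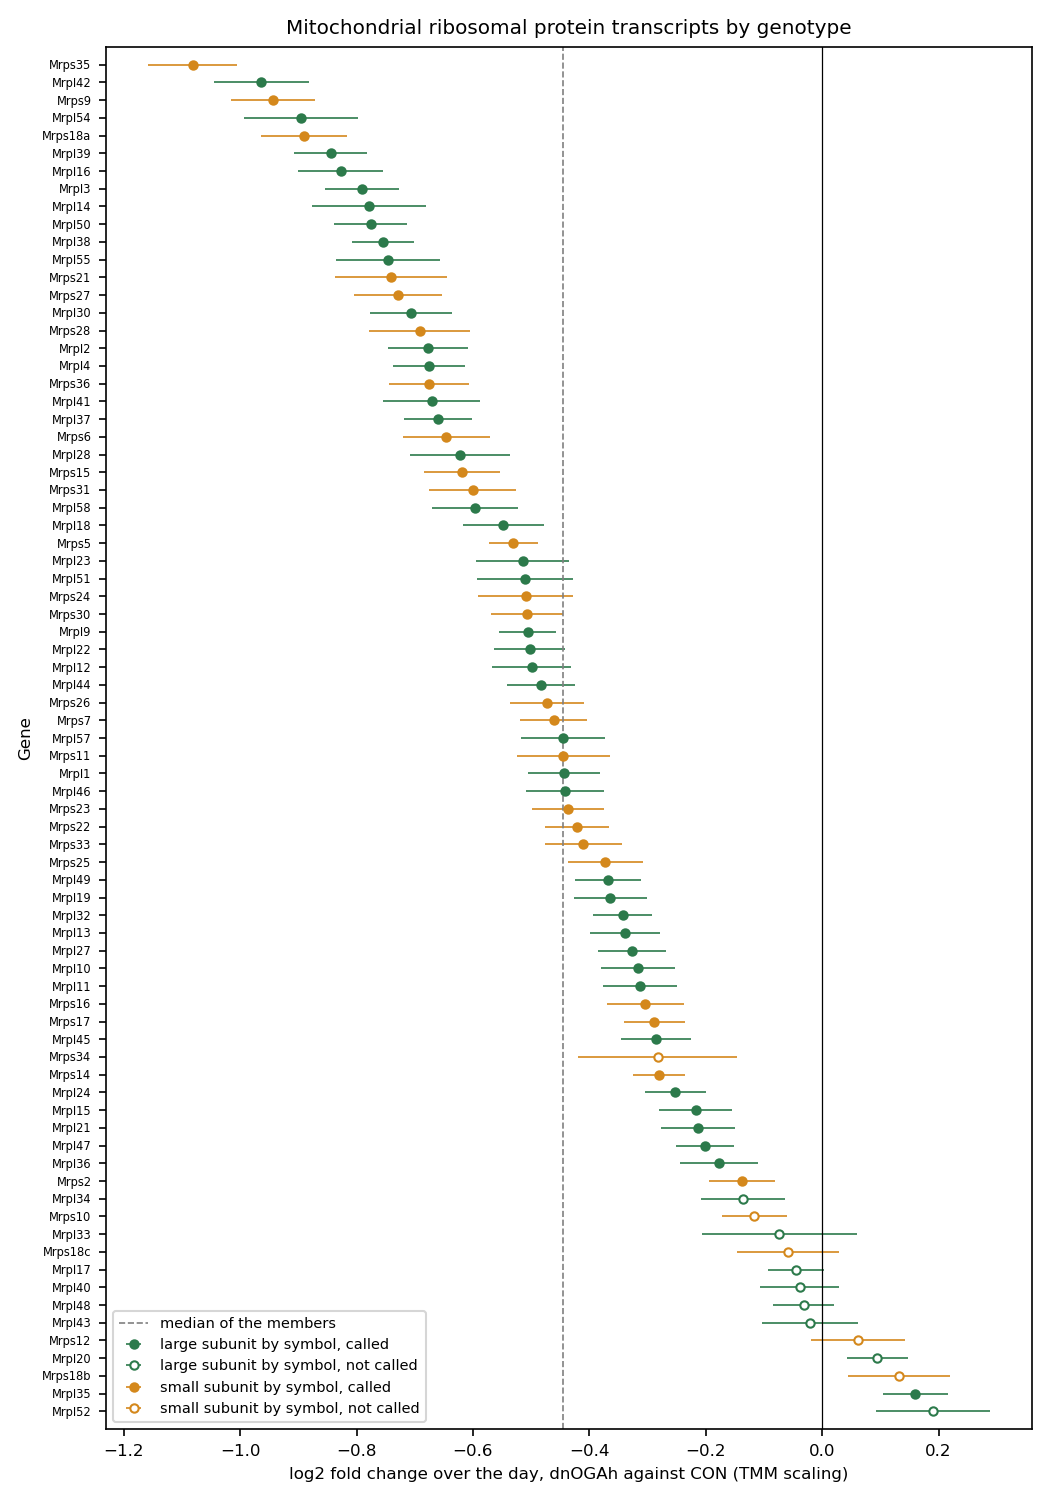
Log2 fold change of each of the 77 members over the day, dnOGAh against CON (horizontal axis, TMM scaling, bars are standard errors), ordered by size and coloured by subunit. Filled points passed the test, and the dashed line is the median of −0.45. Most members lie to the left of 0 with TMM scaling, from −1.08 for Mrps35 to 0.19 for Mrpl52, while on total counts alone the median is 0.02.

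The largest fall was that of Mrps35, a protein of the small subunit without a bacterial counterpart. It had 36.1, 93.1 and 126 CPM (lowest, median and highest of 30) in CON hearts and 31.1, 42.7 and 106 CPM in dnOGAh hearts. Its log2 fold change was -1.08 ± 0.0765 (adjusted p = 1.17e-18), and it was the only member past 2-fold, against 6.56% of all tested genes. Mrpl42, of the large subunit, had 154, 429.7 and 505 CPM in CON hearts and 128, 213 and 509 CPM in dnOGAh hearts. All dnOGAh libraries but the one labelled dnOGAh ZT12 replicate 3 were at or under 287 CPM, and all CON libraries but CON ZT4 replicate 4 were at or above 357 CPM. Its log2 fold change was -0.96 ± 0.0819 (adjusted p = 1.26e-15), and lay between −1.19 at ZT8 and −0.81 at ZT20.

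Mrps9, a small subunit protein of the bacterial S9 family, had 51.9, 92.3 and 109 CPM in CON hearts and 32.7, 46.4 and 111 CPM in dnOGAh hearts. In 26 of the 30 dnOGAh libraries it was below every CON library. Mrpl54 of the large subunit had 43.8, 70.0 and 102 CPM in CON hearts and 23.1, 35.02 and 149 CPM in dnOGAh hearts, again with 26 dnOGAh libraries below the lowest CON library. Mrpl39, Mrpl16, Mrpl14 and Mrpl50, all of the large subunit, had log2 fold changes of -0.84 ± 0.0627, -0.83 ± 0.0732, -0.78 ± 0.0981 and -0.78 ± 0.0632 (SE). Each passed the test, and for Mrpl14 28 of 30 dnOGAh libraries were below every CON library.

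No member had all 30 dnOGAh libraries below all 30 CON libraries, as was the case for 0.121% of all tested genes. Without the 3 libraries that stood apart, 14 of the 77 members had every dnOGAh library (28) below every CON library (29), against 4.27% of all tested genes. They were Mrps35, Mrpl42, Mrps9, Mrps18a, Mrpl16, Mrpl39, Mrpl38, Mrpl3, Mrpl30, Mrpl37, Mrps36, Mrpl4, Mrps15 and Mrps31. With those libraries out the log2 fold change of Mrps35 was −1.16 and that of Mrpl42 was −1.03.

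**Figure D3:**
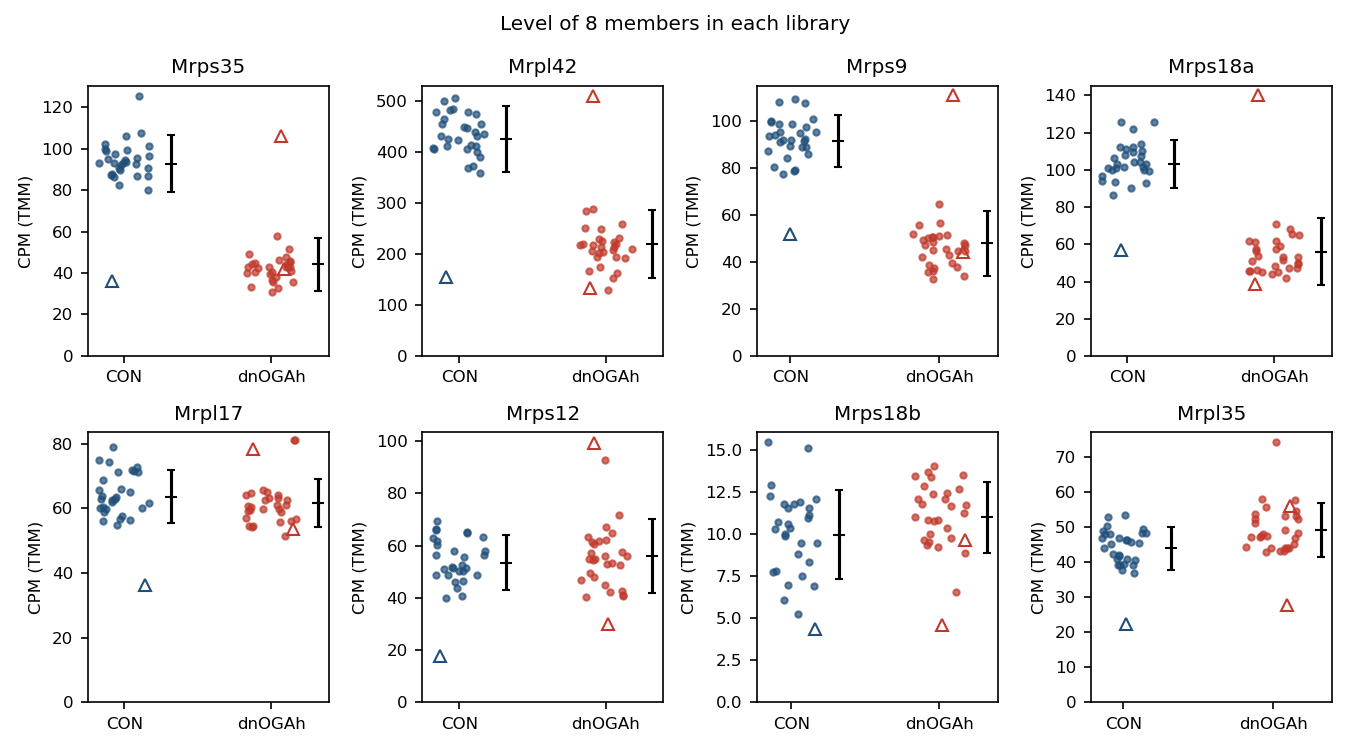
CPM (vertical axis, TMM scaling, from 0) of 8 members in each of the 30 CON and 30 dnOGAh libraries, with the mean ± SD beside the points and open triangles for the 3 libraries that stood apart. In the upper row, for Mrps35, Mrpl42, Mrps9 and Mrps18a, the circles of the genotypes do not overlap, and in the lower row, for Mrpl17, Mrps12, Mrps18b and Mrpl35, they do. On total counts alone the fold changes of the lower row are all above 0.

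Among the members named for a known role, Mrpl3, of the large subunit and mutated in a familial mitochondrial cardiomyopathy, had 50.8, 116 and 139.5 CPM in CON hearts and 37.8, 67.2 and 103 CPM in dnOGAh hearts, a log2 fold change of -0.79 ± 0.0636 (adjusted p = 1.62e-16). Mrpl44, a large subunit protein with a fold like that of RNase III enzymes and linked to infantile hypertrophic cardiomyopathy, had 28.1, 64.3 and 77.9 CPM in CON hearts and 20.8, 47.2 and 55.9 CPM in dnOGAh hearts, a log2 fold change of -0.48 ± 0.0584 (adjusted p = 1.45e-10). Mrps22, of the small subunit and linked to cardiomyopathy with kidney tubule disease, had 16.8, 26.5 and 30.6 CPM in CON hearts and 8.79, 19.8 and 27.1 CPM in dnOGAh hearts, a log2 fold change of -0.42 ± 0.0554 (adjusted p = 1.47e-09). The fall of Mrpl3 was larger than those of Mrpl44 and Mrps22, and the ranges of the genotypes overlapped for all 3. Mrps16, defective in a fatal neonatal lactic acidosis, fell less, with -0.30 ± 0.0664 (adjusted p = 5.97e-05). On total counts alone the values were −0.32 for Mrpl3, −0.001 for Mrpl44, 0.06 for Mrps22 and 0.17 for Mrps16.

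Mrpl12 forms the flexible stalk of the large subunit that recruits translation factors, and its product also binds the mitochondrial RNA polymerase. It had 122, 264 and 327 CPM in CON hearts and 108, 176 and 398 CPM in dnOGAh hearts, a log2 fold change of -0.50 ± 0.0679 (adjusted p = 3.71e-09). Mrpl10, the base of that stalk, fell by less, with -0.32 ± 0.0640 (adjusted p = 1.73e-05). Mrpl58, a peptidyl-tRNA hydrolase that frees stalled ribosomes and is also a part of the large subunit, had a log2 fold change of -0.60 ± 0.0741 (adjusted p = 3.14e-10). Mrpl41, whose product is known to bind Bcl-2, had -0.67 ± 0.0830 (adjusted p = 2.66e-10), and Mrps30, also called a programmed cell death protein, had -0.51 ± 0.0620 (adjusted p = 1.96e-10). Mrps5, whose worm counterpart is known for its part in lifespan, had a log2 fold change of -0.53 ± 0.0421 (adjusted p = 1.01e-16), and 27 of 30 dnOGAh libraries were below every CON library. Mrps36 fell as well, with -0.67 ± 0.0688 (adjusted p = 7.06e-13).

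Mrps12, the protein of the decoding centre related to bacterial S12, stood at the other end of the range. It had 17.9, 52.2 and 69.3 CPM in CON hearts and 30.1, 55.0 and 99.3 CPM in dnOGAh hearts. The groups overlapped over most of their range, and the log2 fold change was 0.06 ± 0.0808 (adjusted p = 0.499). The other members that did not pass were Mrps34 (−0.28), Mrpl34 (−0.14), Mrps10 (−0.12), Mrpl33 (−0.07), Mrps18c (−0.06), Mrpl17 (−0.05), Mrpl40 (−0.04), Mrpl48 (−0.03), Mrpl43 (−0.02), Mrpl20 (0.09), Mrps18b (0.13) and Mrpl52 (0.19), as log2 fold changes. Standard errors differed among them, from 0.0483 for Mrpl17 to 0.136 for Mrps34. Without the 3 libraries Mrps34, Mrpl34 and Mrps10 passed as lower, with adjusted p of 0.0300, 0.0177 and 0.0122, and Mrps18b passed as higher, with 0.0454.

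Mrpl35, a large subunit protein of the bacterial L35 family, was the only member that rose (Mrpl20 and Mrpl52 passed as well with DESeq2 size factors). It had 22.3, 45.4 and 53.4 CPM in CON hearts and 27.9, 47.8 and 74.4 CPM in dnOGAh hearts. Every dnOGAh library lay within or above the CON range, and the log2 fold change was 0.16 ± 0.0559 (adjusted p = 0.00945). The 5 members at the highest fold changes, Mrpl52, Mrpl35, Mrps18b, Mrpl20 and Mrps12, include proteins of both subunits. Without replicate 2 of every group Mrpl35 did not pass, with a log2 fold change of 0.14.

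The 3 genes Mrps18a, Mrps18b and Mrps18c encode variants of the bacterial S18 protein, and they moved apart. Mrps18a had 56.96, 103 and 126 CPM in CON hearts and 38.4, 52.4 and 140.0 CPM in dnOGAh hearts, a log2 fold change of -0.89 ± 0.0735 (adjusted p = 4.30e-16). Mrps18c had 8.40, 15.0 and 23.6 CPM in CON hearts and 9.38, 14.6 and 33.0 CPM in dnOGAh hearts, a log2 fold change of -0.06 ± 0.0875 (adjusted p = 0.563). Mrps18b, the lowest member in CPM, had 4.38, 10.3 and 15.5 CPM in CON hearts and 4.62, 11.1 and 14.0 CPM in dnOGAh hearts, a log2 fold change of 0.13 ± 0.0875 (adjusted p = 0.176). Library scaling has no part in their ratios within a library. The log2 ratio of Mrps18a to Mrps18b counts was 3.41 ± 0.42 (SD, n = 30) in CON and 2.33 ± 0.48 (SD, n = 30) in dnOGAh hearts, a difference of −1.08 ± 0.12 (SE), lower at 6 of 6 times. The log2 ratio of Mrps18a to Mrps18c fell from 2.75 ± 0.26 to 1.90 ± 0.32 (SD, n = 30 each), a difference of −0.85 ± 0.07 (SE), also at 6 of 6 times. Both had an adjusted p of 1.5e-05 by a two-sided permutation test over the hearts, adjusted over 3 pairs, with a raw p of 1e-05 that is the smallest that 100000 permutations can give. The log2 ratio of Mrps18b to Mrps18c was −0.66 ± 0.53 and −0.44 ± 0.50 (SD, n = 30 each), a difference of 0.23 ± 0.13 (SE, permutation p = 0.091, adjusted p = 0.091). Reads on Mrps18c and Mrps18b are less certain, since 23.2% of the exon bases of Mrps18c are shared with a gene on the same strand and 30.5% of those of Mrps18b with a gene on the other strand.

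Levels per kilobase of exon allow a comparison between genes. In CON hearts the highest were Mrps21 with 186 CPM per kb, Mrpl12 with 171 and Mrpl34 with 142, and the lowest were Mrps10 with 4.25, Mrps18b with 4.77 and Mrpl33 with 4.80. Mrps21 fell (-0.74 ± 0.0956 on the log2 scale, SE), while Mrpl34, the third in level, did not pass. The median log2 fold change was −0.67 among the 26 members with the highest CPM in CON hearts (72.0 to 425 CPM), of which 25 fell. It was −0.33 among the 26 with the lowest (9.96 to 43.9 CPM), of which 17 fell. Over all tested genes of any level 31.9% fell. The members thus differed in size of change along their level, which is a description over genes of the same libraries. The level used is the CON mean that also enters the fold change, without regard to exon length, and the relation was not tested.

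At single times, with 5 hearts against 5, 58 members fell at ZT0 (18.9% of all tested genes fell), 37 at ZT4 (14.2%), 59 at ZT8 (21.2%), 30 at ZT12 (13.0%), 48 at ZT16 (17.7%) and 31 at ZT20 (16.3%), and no member rose except 2 at ZT20 (23.6% of all tested genes rose). In all, 23 members fell at all 6 times (9.33% of all tested genes did) and 16 at none (73%), and 64 members had a negative log2 fold change at 6 of 6 times (29.7% of all tested genes). Without the library labelled dnOGAh ZT12 replicate 3 alone the count at ZT12 was 59, and without all 3 libraries it was 63 at ZT12 and 51 at ZT20. The share of all tested genes at single times is not given for these fits. The members that were higher at ZT20 were Mrpl35 (0.39 ± 0.14, SE, adjusted p = 0.0197 from edgeR's test) and Mrpl48 (0.32 ± 0.13, SE, adjusted p = 0.0434 from the same test). Mrpl48 had 59.5 ± 6.38 CPM in CON and 74.3 ± 15.1 CPM in dnOGAh hearts at ZT20 (SD, n = 5), and 72.2 ± 5.14 and 60.4 ± 6.65 CPM at ZT8. Its order between the genotypes at ZT8 was thus opposite to that at ZT20, but its genotype by time interaction did not pass (unadjusted p = 0.0651 from edgeR's test, adjusted p = 1).

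No member showed an interaction of genotype and time by edgeR's test, and none had an unadjusted p under 0.05, against 0% of all tested genes that passed and 2.57% at an unadjusted p under 0.05. With DESeq2 the count was 0 as well. After Mrpl48, the smallest unadjusted p of this test were those of Mrps11 (0.193) and Mrpl54 (0.203). The fall of the members in dnOGAh hearts was therefore not shown to differ between times of day, with counts at single times that moved with single libraries.

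Oscillation over 24 h was not detected for any member in either genotype. By JTK_CYCLE, the rank test for a rhythm that the study used, 0 of 77 passed in CON hearts (2.08% of all tested genes passed). In dnOGAh hearts 0 passed as well (0.171%). At an unadjusted p under 0.05 there were 4 members in CON hearts (11.53% of all tested genes) and 2 in dnOGAh hearts (3.67%). A cosinor test in edgeR in place of JTK_CYCLE also gave 0 in both. In CON hearts these were Mrps2 (p = 0.0199 by the exact null of the test), Mrpl2 (0.0271), Mrpl48 (0.0326) and Mrps16 (0.0345). In dnOGAh hearts they were Mrpl1 (p = 0.00966 by the same exact null) and Mrps18a (0.0289), and Mrps25 followed with 0.0548. A test of any difference between times without a set shape passed for 0 members in CON (1.18% of all tested genes) and 0 in dnOGAh hearts (0.375%). At an unadjusted p under 0.05 by this edgeR test there were 0 members in CON (10.96% of all tested genes) and 7 in dnOGAh hearts (8.36%). Its smallest p were those of Mrpl10 (0.0899), Mrps2 (0.111) and Mrpl48 (0.124) in CON hearts and of Mrpl54 (0.00664), Mrps25 (0.0108) and Mrps5 (0.0142) in dnOGAh hearts, all from edgeR's test. A difference in rhythm between the genotypes passed for 0 members (0.0166% of all tested genes), and its smallest p were those of Mrpl48 (0.108), Mrpl47 (0.149) and Mrps6 (0.162) by edgeR's test.

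The cosine amplitudes were small. On the log2 scale they ranged from 0.02 to 0.33 in CON hearts (median 0.10) and from 0.04 to 0.23 in dnOGAh hearts (median 0.11). The medians over all tested genes were 0.16 and 0.12. Those genes include ones at far lower levels than the members, so the medians are not compared at like levels. Mrps2, a small subunit protein of the bacterial S2 family, had an amplitude of 0.16 ± 0.07 (SE) with a fitted peak at 20.2 h in CON hearts. Mrpl2 of the large subunit had 0.16 ± 0.06 (SE) with a fitted peak at 12.6 h. The other members with a p under 0.05 by JTK_CYCLE in CON hearts, before adjustment over genes, were Mrpl48 and Mrps16. Their fitted peaks were at 11.1 h for Mrpl48 and 16.0 h for Mrps16. A rhythm of this size may be missed with 5 hearts at each of 6 times, so that these counts do not show its absence.

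Other genes of mitochondrial translation were counted from a list of 65, of which 62 were tested. Of these 50 fell, 5 rose and 7 did not pass, while 31.9% of all tested genes fell and 38.8% rose. Their median log2 fold change was −0.44 (11 fell and 16 rose on total counts alone). All 10 tested translation factors fell, with a median of −0.54. Gfm1, the elongation factor that moves the ribosome along the mRNA, had 158 ± 18.9 CPM in CON and 88.6 ± 16.0 CPM in dnOGAh hearts (SD, n = 30), a log2 fold change of −0.83. Tufm, which brings aminoacyl-tRNA to the ribosome, had 237 ± 31.2 and 138 ± 30.3 CPM (SD, n = 30), a log2 fold change of −0.79. Mtfmt, which formylates the initiator tRNA, changed least among them, at −0.29. Of 5 mitochondrial ribosome proteins under other symbols 3 fell, among them Dap3 (−0.84) and Ptcd3 (−0.61), both of the small subunit, while Chchd1 (−0.04) and Gadd45gip1 (−0.11) did not pass.

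Of 26 genes of ribosome assembly and rRNA modification 23 fell, 1 rose and 2 did not pass, with a median of −0.45. Mtg2, a GTPase of large subunit assembly, had −0.94, and Tfb1m, which methylates the small subunit rRNA, had −0.88. Ddx28, an RNA helicase of large subunit assembly, was the gene that rose, at 0.22. Of 12 genes of mitochondrial transcription and mRNA handling 10 fell and 2 did not pass, with Polrmt, the mitochondrial RNA polymerase, at −0.87 and Lrpprc, which stabilises mitochondrial mRNAs, at −0.89. Of 9 nuclear regulators 4 fell and 4 rose, near the shares of all tested genes (31.9% fell and 38.8% rose). Ppargc1a, the coactivator of mitochondrial biogenesis, had 67.4 ± 9.19 CPM in CON and 38.0 ± 24.9 CPM in dnOGAh hearts (SD, n = 30), a log2 fold change of −0.86, and its partner Esrra had −0.72. Gabpa, whose product binds the ETS letters, had −0.31, Nrf1 had 0.18, and Yy1 did not pass (0.05, adjusted p = 0.24 from edgeR's test). Pprc1, related to Ppargc1a, rose by 0.85 and Myc, at only 1.75 CPM in CON hearts, by 3.05.

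**Figure D4:**
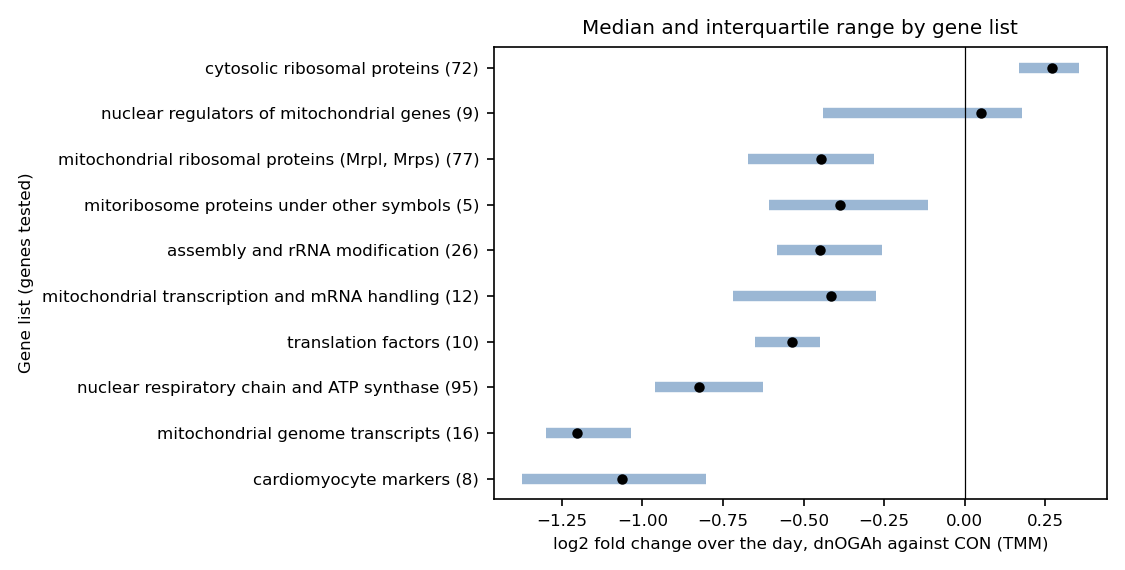
Median (point) and interquartile range (bar) of the log2 fold change over the day, dnOGAh against CON (horizontal axis, TMM scaling), for the members and 9 other gene lists, with the number of genes tested. The members, at −0.45, lie between the cytosolic ribosomal proteins at 0.27 and the nuclear respiratory chain at −0.82. Total counts alone moved the median of all genes up by 0.48.

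Cytosolic ribosomal proteins went the other way. Of 72 tested 55 rose, none fell and 17 did not pass, with a median log2 fold change of 0.27. Of 95 nuclear respiratory chain and ATP synthase genes 92 fell, with a median of −0.82, and of 16 mitochondrial genome transcripts 15 fell, with a median of −1.20. Ratios of sums within a library do not depend on its scaling. Summed members over summed cytosolic ribosomal proteins were 0.140, 0.267 and 0.314 (lowest, median and highest) in CON and 0.102, 0.155 and 0.249 in dnOGAh hearts. Summed members over the summed nuclear respiratory chain were 0.0869, 0.0935 and 0.103 in CON and 0.0878, 0.119 and 0.156 in dnOGAh hearts. The members were thus lower against the cytosolic ribosome and higher against the respiratory chain in the median dnOGAh heart. The overlap with the respiratory chain as base came from the library labelled dnOGAh ZT12 replicate 3 alone, without which the lowest dnOGAh ratio was 0.109, above every CON heart. Against the cytosolic ribosome the ranges overlapped also without the 3 libraries, with 0.229 as the lowest CON ratio and 0.249 as the highest dnOGAh ratio. This overlap came from dnOGAh ZT20 replicate 5 alone. That heart had the lowest summed cytosolic ribosomal proteins of the dnOGAh hearts, 16790 CPM against a median of 24790 CPM.

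Cell type markers moved with these results. All 8 cardiomyocyte markers fell (median −1.06), and their summed level ran from 28930 to 60190 CPM (median 50030) in CON and from 13170 to 80700 CPM (median 23920) in dnOGAh hearts. Without CON ZT4 replicate 4 the lowest CON sum was 45470 CPM, and without the library labelled dnOGAh ZT12 replicate 3 the highest dnOGAh sum was 31770 CPM, so that the genotypes no longer overlapped. All 6 fibroblast markers rose (median 1.27), with summed levels of 793 to 1067 CPM in CON and 1155 to 4808 CPM in dnOGAh hearts (2238 to 4808 CPM without the 3 libraries). All 5 macrophage markers rose (median 3.17), with 53.7 to 98.6 CPM in CON and 79.4 to 786 CPM in dnOGAh hearts (189 to 786 CPM without the 3 libraries). The sum of the members over that of the cardiomyocyte markers was 0.102, 0.111 and 0.133 (lowest, median and highest) in CON and 0.0991, 0.162 and 0.263 in dnOGAh hearts. The value of 0.0991 was that of the library labelled dnOGAh ZT12 replicate 3, and without it the lowest dnOGAh ratio was 0.136, above every CON heart. Of 5 endothelial markers 5 fell, of 4 smooth muscle and pericyte markers 2 fell and 1 rose, and of 4 lymphocyte markers 2 rose. The part of these other cell types in the change of the members was not tested.

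The genes of 18 members (23.4%) start within 1000 bases of a protein-coding gene on the other strand in the GRCm38 annotation, against 6.78% of the protein-coding genes in the table, and share a start region with it. The 18 neighbours were tested in the same fit, and 7 fell (31.9% of all tested genes did), 8 rose (38.8%) and 3 did not pass. Their median log2 fold change was −0.05. Of the 18 members beside them 13 fell, with a median of −0.48. Among the 7 neighbours that fell, Lrrc46 was at only 0.502 CPM in CON hearts (adjusted p = 0.0486 from edgeR's test). Mrpl54 and Apba3, whose starts lie 26 bases apart, both fell (-0.90 ± 0.0983 and −1.04 ± 0.08, SE). Mrps12 and Sars2, the mitochondrial seryl-tRNA synthetase, start 172 bases apart, and while Mrps12 did not pass, Sars2 fell from 18.2 ± 2.86 to 10.7 ± 2.07 CPM (SD, n = 30), a log2 fold change of −0.76 ± 0.06 (SE). Mrpl30 had 111, 215 and 267 CPM in CON hearts and 95.6, 129 and 313 CPM in dnOGAh hearts, a log2 fold change of -0.71 ± 0.0710 (SE). Its neighbour Mitd1, of midbody abscission and with its start 66 bases away, rose by 1.06 ± 0.14 (SE). Mrpl57 (-0.45 ± 0.0721) fell and Ska3 (2.17 ± 0.21, SE), a kinetochore gene at 0.516 CPM in CON hearts and 49 bases away, rose. Mrpl49 (-0.37 ± 0.0568) fell while Fau (0.44 ± 0.08, SE), which encodes a cytosolic ribosomal protein, rose. Pairs of both kinds were thus seen, but the neighbours fell and rose at near the shares of all tested genes. A link between a neighbour and its member was not tested. Mrps11 and Mrpl46, members whose annotated 5′ ends overlap on opposite strands, are not in this count and had -0.44 ± 0.0797 and -0.44 ± 0.0675.

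**Figure D5:**
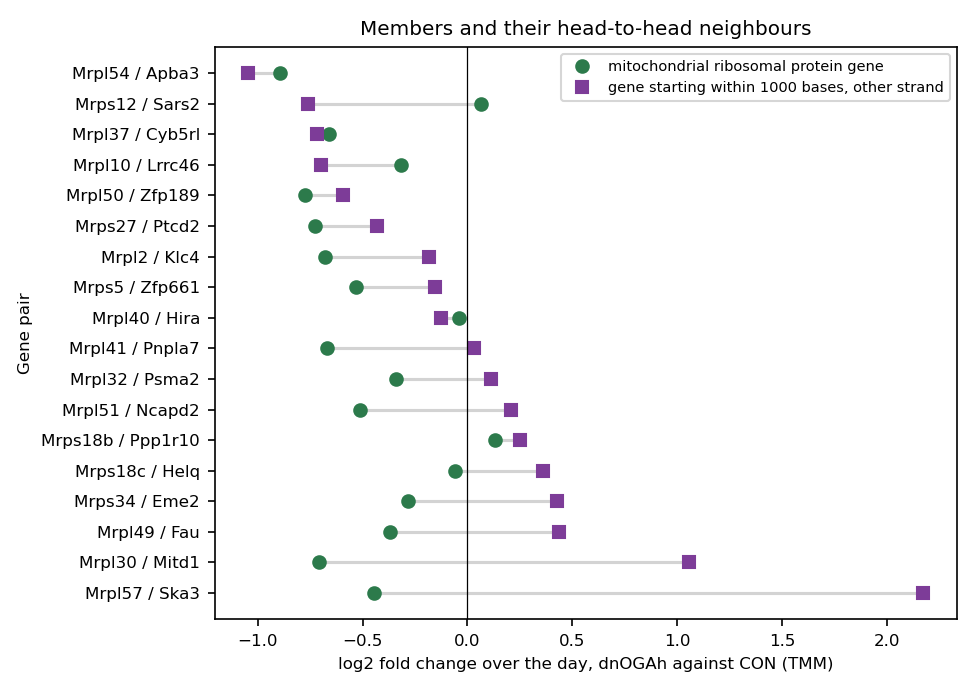
Log2 fold change over the day, dnOGAh against CON (horizontal axis, TMM scaling), of 18 members (circles) and of the gene that starts within 1000 bases on the other strand (squares), 1 pair per line. The pairs run from Apba3 at −1.04 to Ska3 at 2.17. With TMM scaling 7 neighbours fell and 8 rose, against 31.9% and 38.8% of all tested genes. Total counts alone moved the median of all genes up by 0.48.

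Some members share exon bases with other genes, and the strand setting of the counting is not given in the sources used here. Over 30% of the exon bases lie opposite another gene for Mrps25 (69.8%), Mrps34 (63.4%, with 37.0% shared on the same strand), Mrpl19 (36.0%), Mrpl43 (33.4%) and Mrps18b (30.5%). Counts of these members are less certain than those of Mrps35, Mrpl42 and Mrps9, which share none.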

How the data were processed

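RNA (polyA libraries, paired-end reads) from 60 ventricle samples was quantified. The deposited table holds raw counts per Ensembl gene that the authors obtained, per the submitters' processing notes, by trimming (Trim Galore 0.6.7), alignment to GRCm39 (STAR 2.7.10b) and counting (HTSeq 2.0.2). The annotation release and strand setting are not given in the sources used here. The labels' ZT24 was read as ZT0. HTSeq's summary rows (5.16% without a feature, 5.76% ambiguous and 19.8% not unique) were left out. Names came from a GRCm38 table (52093 of 53700 matched), and promoter windows from RefSeq.

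Tests were run with edgeR 4.0.16 under R 4.3.3 (filterByExpr over the 12 groups, minimum count 10, TMM, quasi-likelihood tests with Benjamini-Hochberg adjustment). Oscillation was tested by JTK_CYCLE on CPM, at 24 h and 6 lags, with Bonferroni adjustment over the lags. Amplitudes came from a cosinor on log2 CPM (prior count 2). Ratios of paralogs (0.5 added to counts) were tested by permutation. Scripts were tested on simulated data. Alternatives were DESeq2 1.42.0 (size factors, test), limma 3.58.1, other scalings and filters, libraries left out, a replicate block, the library number, a tied null for JTK and a cosinor test.

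Members named in the text are the 10 lowest and 8 highest fold changes, those with the smallest p per time test, the 3 highest and 3 lowest per kb, members with fixed roles, those that did not pass, and those with a head-to-head neighbour. Members, lists and tests were chosen with earlier results of these data known.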

Additional observations from a re-analysis of the deposited data

Results flagged for a closer look

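The summed level of the 77 members in the 12 groups of 5 hearts was checked for a library far from the others of its group, by the gap to its nearest neighbour over the group's range. CON ZT4 replicate 4, at 3032 CPM, lay below the other 4 hearts of its group, with a gap of 0.724 of the range. The library labelled dnOGAh ZT12 replicate 3, at 7996 CPM, lay above the other 4 hearts of its group, with a gap of 0.846 of the range. Chance alone gives a gap past the limit used (Dixon's 95% value) in about 1 in 20 groups. The former library had 77.6% of its counts on mitochondrial genome transcripts, and the latter had 70.1 CPM of Oga, inside the CON range. Over single members, 124 of 924 sets of 5 hearts (13.4%) held such a library. The part of these libraries in the results is given by the counts without them.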

How the results depend on the processing

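On total counts alone, which moved the median of all genes by 0.48, 34 of the 77 members changed sign (all from negative to positive), 36 members passed over the day (20 higher, 16 lower) and their median log2 fold change was 0.017. At single times 5 (ZT0), 8 (ZT4), 8 (ZT8), 0 (ZT12), 6 (ZT16) and 6 (ZT20) passed, and of the other mitochondrial translation genes 27 passed (16 higher, 11 lower). Among the members described by name, the log2 fold change then turned from negative to positive for Mrpl57 (0.017), Mrpl1 (0.024), Mrps11 (0.029), Mrps22 (0.064), Mrps25 (0.086), Mrpl49 (0.095), Mrpl32 (0.14), Mrps16 (0.17), Mrpl10 (0.17), Mrps34 (0.18), Mrpl47 (0.28), Mrpl34 (0.34), Mrps2 (0.35), Mrps10 (0.36), Mrpl33 (0.38), Mrps18c (0.40), Mrpl17 (0.43), Mrpl43 (0.43), Mrpl48 (0.44) and Mrpl40 (0.45). DESeq2 size factors and the DESeq2 test each gave 3 higher members (Mrpl20 and Mrpl52 with Mrpl35), and Mrpl43 was at 0.0068 in both. Without the 3 libraries that stood apart 2 members were higher, 63 passed at ZT12 and 51 at ZT20. Without the library labelled dnOGAh ZT12 replicate 3 alone, an alternative chosen after seeing the data, 59 passed at ZT12. Leaving out each replicate number in turn gave 0 to 2 higher members, with 37 to 56 members passed at ZT0, 24 to 39 at ZT4, 14 to 55 at ZT12 and 19 to 45 at ZT20. Leaving out each of the 3 libraries in turn gave 59 at ZT0, 28 to 48 at ZT4 (the highest without CON ZT4 replicate 4), 32 to 59 at ZT12 and 36 to 44 at ZT20. In the same fits Mrpl33 ranged from −0.16 to 0.0069, Mrpl43 from −0.081 to 0.021, Mrpl48 from −0.067 to 0.0036 and Mrps18c from −0.12 to 0.019, the positive values without replicate 5 (Mrpl43 0.011) or, for the highest of Mrpl43, without replicate 2. None of these 4 passed the test with all libraries. The share of all tested genes is not set beside these counts, and the causes of the changes were not tested.

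Under limma, no filter, a mean of at least 1 CPM, TMM without mitochondrial genome transcripts, the library number as a covariate and a replicate block, 62 to 66 members fell over the day. The tests of time, interaction, oscillation and rhythm difference gave 0 members under all alternatives run. With the replicate block 65 members passed over the day (64 lower, 1 higher), and it moved no count by over 1.5 times. Replicate numbers did not pair the hearts, since deviations correlated with a mean r of 0.0058 between hearts of the same number and 0.0016 between hearts of different numbers. The depth limits Mrps18b most, at 4.38 to 15.5 CPM in CON hearts.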
